A study of Mus musculus with 6 samples.

Results

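The laminin chains and integrin subunits are the genes of the basement membrane scaffold and of the receptors that hold cells to it, and their mRNA was compared in *Pdx1-Cre* lineage cells with and without *mir-302*. Members were chosen by gene symbol alone, as every *Lama*, *Lamb* or *Lamc* gene with a chain number and every integrin alpha or beta subunit. Of the 55414 genes listed, 38 met this rule, namely 11 laminin chains, 18 integrin alpha subunits and 9 integrin beta subunits. *Itgbl1*, which resembles integrin beta subunits in name but encodes no receptor subunit, was left out. The filter on low counts kept 31 of the 38 members, 10 laminin chains and 21 integrin subunits, among 16353 genes in all.

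Laminins are trimers of an alpha, a beta and a gamma chain that polymerize outside the cell into the sheet on which epithelia rest. Integrins are receptors made of an alpha and a beta subunit, and the alpha subunit largely decides whether the receptor binds laminin, collagen or proteins with the short RGD motif such as fibronectin and vitronectin. In the embryonic pancreas the bud epithelium lies on a laminin-rich basement membrane against the surrounding mesenchyme, and integrins carry its signals to the cytoskeleton.

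Polyadenylated RNA was sequenced from embryos at E10.5, from cells that a *Pdx1-Cre* transgene had marked with tdTomato. There were 3 libraries from *mir-302* wild-type (WT) embryos and 3 from *mir-302* knockout (KO) embryos, and both genotypes carried *Pdx1-Cre* and tdTomato. Embryos came from *Pdx1-Cre*, *mir-302*+/- males and *mir-302*+/- females with 2 copies of *Rosa26* LSL-tdTomato, and the trunk was dissociated with trypsin before sorting. Whether a library holds 1 embryo or several, and whether libraries of a genotype come from separate litters, is not given in the sources used here, so p-values measure the spread between these libraries, which may in part be technical. Cre activity follows the *Pdx1* promoter, which is also used in the nearby gut, so sorted cells need not all be pancreatic. In sorted populations, fewer cells of a type and less RNA per cell cannot be told apart.

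Libraries held 17352498 to 26634523 counts on genes. Levels are given as CPM, counts scaled to library size, after TMM scaling, an edgeR step that adjusts for differences in composition between libraries. Of the labelled cell type, all 16 pancreatic progenitor markers were detected in every library, with *Pdx1* at 73.1 to 107.5 CPM. Markers of other cells were present and uneven. The 10 hepatoblast markers summed to 1399, 2114 and 918.7 CPM for the WT libraries in replicate order. For the KO libraries the sums were 1508, 814.2 and 2231 CPM. The 16 progenitor markers summed to 1845 to 2289 CPM in WT and to 1965 to 2527 CPM in KO. The summed level of 16 mesenchyme markers was 538.5, 204.3 and 1180 CPM for the WT libraries in replicate order, and 1373, 54.9 and 1120 CPM for the KO libraries, with 9 of the 16 at 0 in KO replicate 2. The 11 erythroid markers summed to 16236 CPM in WT replicate 3, to 6502 CPM in KO replicate 1, to 351.3 CPM in KO replicate 3 and to under 5 CPM in the other libraries. The deleted miRNA genes could not check the labels: *Mir302a*, *Mir302b* and *Mir302c* had 0 counts in every library and *Mir302d* had 2 counts in KO replicate 3.

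KO and WT were compared by the quasi-likelihood test of edgeR, with p-values adjusted over all genes after Benjamini and Hochberg, and DESeq2 was run beside it. By edgeR, 0 of 31 members passed an adjusted p of 0.05, and the share over all genes was 0.0%. At an unadjusted p under 0.05 there were 6 members higher in KO, which is 19.4% of those tested beside 6.42% of all genes, and 4 lower, which is 12.9% beside 3.97%. DESeq2, the tool named in the study, gave an adjusted p to 28 members. It called *Lamc1*, *Itgav*, *Itgb5* and *Itga6* higher (14.3% of the 28, beside 4.22% of all genes with such a value) and *Lama5* and *Itga4* lower (7.14% beside 0.648%). Every KO library lay above every WT library for 6 of the 31 members, beside 8.36% of all genes, and below for 3, beside 7.99%, so the latter share of 9.68% was close to that of all genes. Fold changes were positive for 17 members and negative for 14, with a median log2 fold change of 0.02 beside -0.02 over all genes. These shares describe the members and were not tested.

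**Figure D1:**
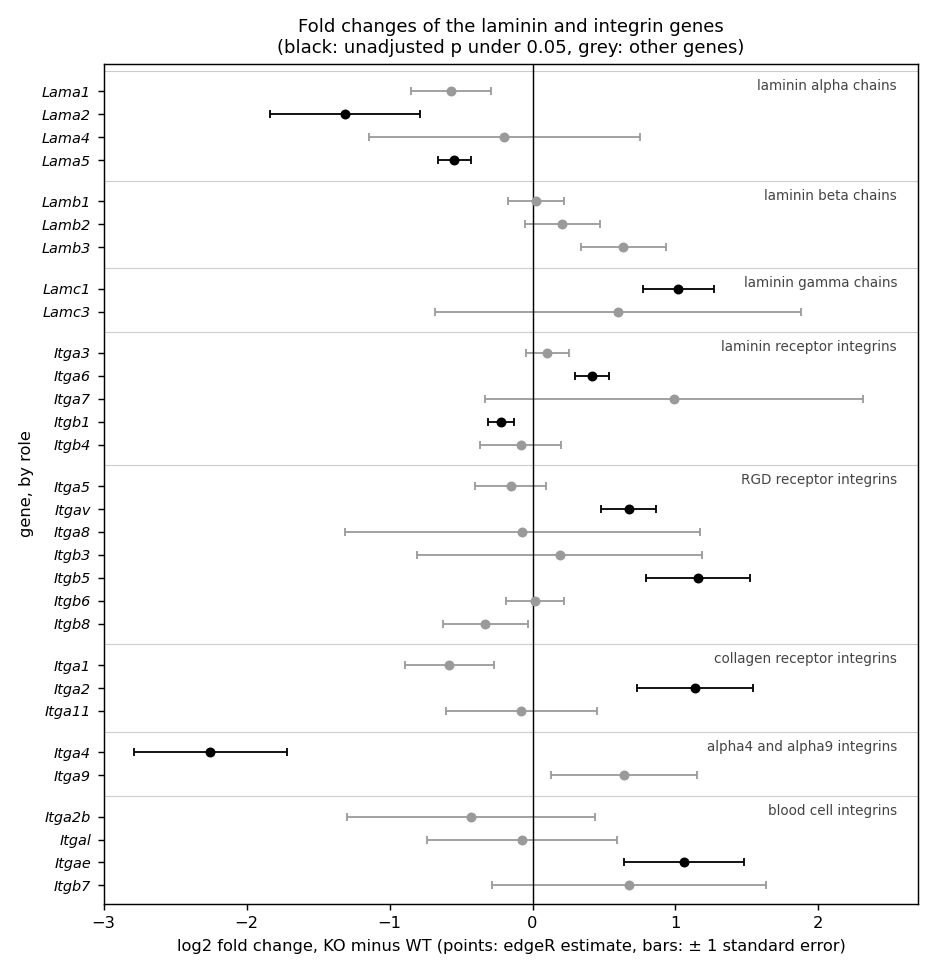
Log2 fold change of 30 of the 31 members tested, KO minus WT, with ± 1 standard error from edgeR and grouped by role. The alpha chains all lie left of 0 and the beta chains, *Lamc1* and *Lamc3* right of it, with bars that cross 0 for *Lama4*, *Lamb1*, *Lamb2* and *Lamc3*. The 10 genes in black, from *Itga4* at -2.25 to *Itgb5* at 1.16, had an unadjusted p under 0.05.

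The miRNAs missing in KO cells pair with targets through their seed, bases 2 to 8. No seed was searched other than that of miR-302b and miR-302d. Their mature sequences from RefSeq (GRCm38.p6, chromosome 3) share the same seed, shown in capitals.
mmu-miR-302b-3p: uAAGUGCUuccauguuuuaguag
mmu-miR-302d-3p: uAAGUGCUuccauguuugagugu
The DNA letters that pair with this seed are AGCACTT. The longest annotated 3′UTR of each member (GENCODE M21, GRCm38) was searched on the sense strand for AGCACTT followed by A (8mer), AGCACTT (7mer-m8) or GCACTTA (7mer-A1). A match was present in 5 of the 38 members, 13.2%, beside 20.6% of the 13763 protein-coding genes that passed the filter (not tested). The matches in members other than *Lama3*, which had 1 7mer-m8 match and too few counts to be tested, are printed with 7 bases on each side and the matched letters in capitals.
*Itgb3*, 8mer, chr11:104669705-104669726, plus strand: ctgatgtAGCACTTAgttttta
*Itgb4*, 7mer-A1, chr11:116008376-116008396, plus strand: ttgttctGCACTTAataaaag
*Itgav*, 7mer-A1, chr2:83803750-83803770, plus strand: tgcacagGCACTTAgaacagg
*Itgb8*, 7mer-m8, chr12:119162893-119162913, minus strand: gtgttgtAGCACTTtattgta
*Itgb8*, 7mer-m8, chr12:119161461-119161481, minus strand: gctctccAGCACTTgaaagtt
*Itgb8*, 7mer-m8, chr12:119159167-119159187, minus strand: atttcacAGCACTTtgtaagt
The log2 fold changes of these genes were 0.19 for *Itgb3*, -0.08 for *Itgb4*, 0.67 for *Itgav* and -0.33 for *Itgb8*, which holds the most matches. Their median was 0.05, beside 0.02 for the tested members with no match. A match here is a run of letters in a 3′UTR and no evidence of binding. None of the 3 members with the smallest unadjusted p, *Lama5*, *Itga4* and *Lamc1*, holds one.

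The 4 laminin alpha chains tested all had negative fold changes, with a median of -0.56. Over all genes, 8904 of the 16353 tested had negative fold changes. Only for *Lama5* among these chains did all KO libraries lie below all WT libraries. *Lama5* (chr2:180176373-180225859, minus strand, GRCm38) encodes the alpha chain of most mature epithelial basement membranes. In order of replicate number, as for every gene here, it was at 64.2, 73.3 and 80.9 CPM in WT and at 47.3, 48.7 and 53.5 CPM in KO. The KO libraries lay close together and all below the WT libraries. Its log2 fold change was -0.55 with a standard error of 0.11, with an unadjusted p of 0.0018 and an edgeR adjusted p of 0.140, and DESeq2's adjusted p was 0.0061. Without each library in turn, its fold change ran from -0.63 to -0.43.

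*Lama1*, the alpha chain of the earliest embryonic basement membranes, was at 77.9, 86.5 and 73.3 CPM in WT and at 50.3, 32.6 and 77.2 CPM in KO. KO replicate 3 lay inside the WT range and the other KO libraries below it. Its log2 fold change of -0.57 (standard error 0.28) had an edgeR adjusted p of 0.559 and 0.354 by DESeq2. Without KO replicate 3 the fold change was -0.90 and without KO replicate 2 it was -0.30, so its size rested on these libraries.

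*Lama2*, best known as the alpha chain of muscle and nerve basement membranes, was low, at 1.32, 3.24 and 2.04 CPM in WT and 0.67, 0.51 and 1.47 CPM in KO, from 9 to 58 counts a library. KO replicate 3 lay just above WT replicate 1, and the log2 fold change of -1.31 (standard error 0.53) had an unadjusted p of 0.0402 and an edgeR adjusted p of 0.439. *Lama4*, the alpha chain of blood vessels and mesenchyme, was at 9.52, 1.96 and 17.5 CPM in WT and at 6.49, 1.31 and 17.5 CPM in KO. It differed far more between libraries of a genotype than between genotypes, with a log2 fold change of -0.20 (standard error 0.95) that ran from -1.26 to 0.59 without each library in turn. *Lama3*, the alpha chain of stratified epithelia, did not pass the filter, with 19, 0 and 47 counts in WT and 9, 2 and 7 counts in KO.

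**Figure D2:**
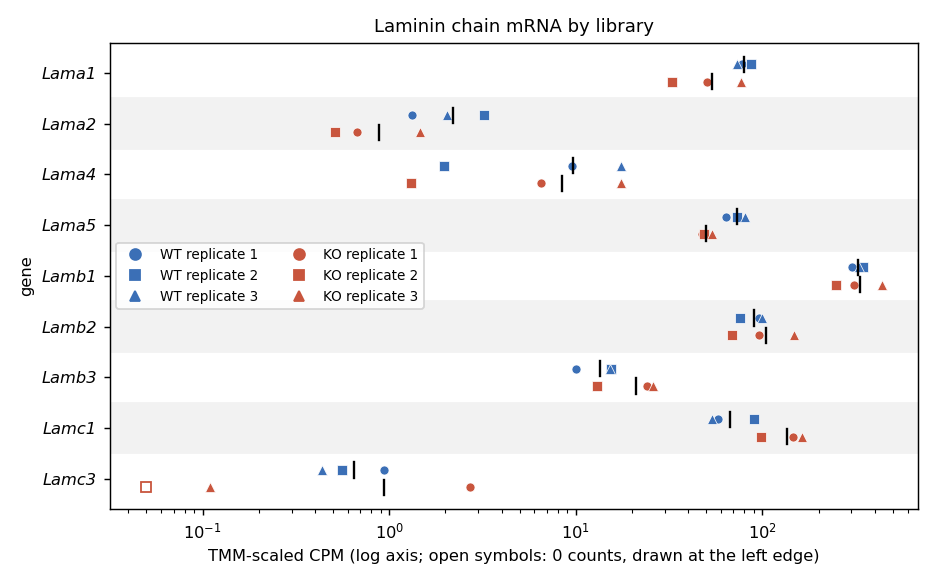
TMM-scaled CPM on a log axis of 9 of the 10 laminin chains that passed the filter, with a symbol for each library and a black bar at the mean of each genotype. *Lamc1* shows every KO library to the right of the WT libraries and *Lama5* every KO library to the left, while the symbols of *Lama4* spread widely in both genotypes, from 1.31 to 17.5 CPM over all libraries.

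The levels of *Lama4* and of the integrin gene *Itga8* followed the mesenchyme markers more than the genotype. *Itga8*, an RGD receptor subunit of mesenchymal cells, was at 4.71, 2.40 and 14.6 CPM in WT and at 6.56, 0 and 14.1 CPM in KO. Both genes were lowest in KO replicate 2 and next lowest in WT replicate 2, the libraries with the lowest summed mesenchyme markers, and highest in the replicates 3, while the summed markers were highest in KO replicate 1. *Lama5* did not follow this order. The part of the mesenchyme in the levels of other members was not tested.

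**Figure D3:**
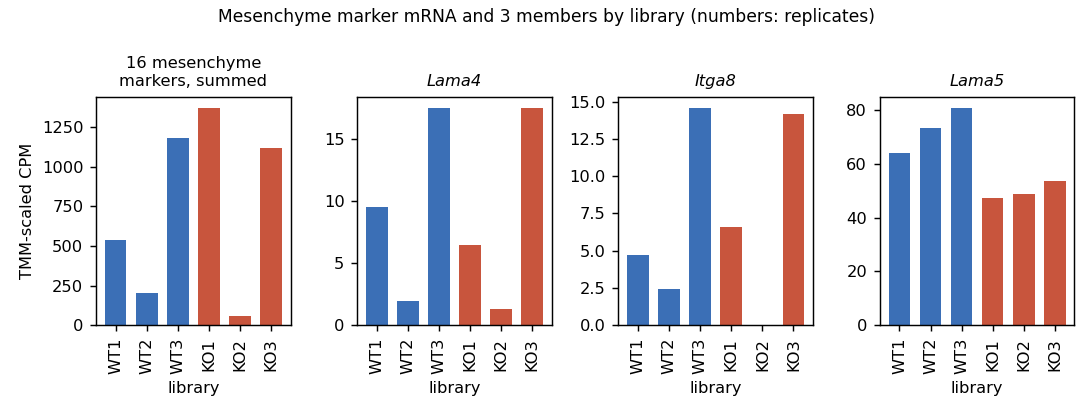
CPM by library of 16 mesenchyme markers summed, of *Lama4*, of *Itga8* and of *Lama5*, each on its own linear axis from 0, with WT in blue and KO in red. The first 3 panels are lowest in WT2 and KO2, at 204.3 and 54.9 CPM for the summed markers, and *Lama5* instead separates WT from KO.

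The laminin beta chains did not differ detectably. *Lamb1*, the main beta chain of embryonic basement membranes, was at 302.2, 346.0 and 330.0 CPM in WT and 311.6, 247.1 and 435.9 CPM in KO, a log2 fold change of 0.02 with a standard error of 0.19. *Lamb2*, which replaces it in mature kidney and muscle, was at 95.9, 75.8 and 98.9 CPM in WT and 95.7, 68.5 and 148.5 CPM in KO, a log2 fold change of 0.21 with a standard error of 0.26. For both, the KO libraries surrounded the WT libraries.

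*Lamb3*, a beta chain of the laminin of epidermal anchorage, was at 10.04, 15.4 and 15.2 CPM in WT and 24.2, 12.9 and 25.8 CPM in KO. KO replicate 2 lay within the WT range and the other KO libraries above it. The log2 fold change was 0.63 (standard error 0.30), with an edgeR adjusted p of 0.532 and 0.305 by DESeq2. In GENCODE M21 *Lamb3* overlaps *G0s2* on the other strand, which had 761 counts in all libraries together, and how strand was handled in counting is not given in the sources used here.

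The product of *Lamc1* (chr1:153218922-153332786, minus strand, GRCm38) is the gamma chain of nearly all laminins. It was at 57.5, 89.9 and 53.6 CPM in WT and at 145.4, 98.2 and 163.7 CPM in KO. Every KO library lay above every WT library, although WT replicate 2 and KO replicate 2 were close. *Lamc1* was 2.03-fold higher in KO, a log2 fold change of 1.02 with a standard error of 0.25, with an unadjusted p of 0.0043 and an edgeR adjusted p of 0.168 and 0.00083 by DESeq2. Without each library in turn the fold change ran from 0.90 to 1.31.

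*Lamc3*, a minor gamma chain, was near the limit of detection, with 20, 10 and 9 counts in WT and 73, 0 and 2 counts in KO. Its log2 fold change of 0.60 (standard error 1.28) rested on KO replicate 1 and was -3.39 without that library.

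Genes of different length were compared per kilobase of the longest protein-coding transcript. Beta chain mRNA was more abundant than alpha chain mRNA in both genotypes. By the union of exons, the alpha and beta sums were 15.6 and 49.8 CPM per kilobase in WT and 10.7 and 53.7 in KO. Whether long and short transcripts were recovered alike was not tested. In WT, *Lamb1* led with 56.4 ± 3.83 CPM per kilobase (SD, n = 3), followed by *Lamb2* with 16.02 ± 2.24. Lower levels were those of *Lamc1* with 8.79 ± 2.61, *Lama1* with 8.32 ± 0.71 and *Lama5* with 6.39 ± 0.74. *Lamc1* and *Lama1* did not differ beyond their spread. *Lamb3*, *Lama4*, *Lama2*, *Lamc3* and *Lama3* followed at 2.78, 1.60, 0.23, 0.11 and 0.10 CPM per kilobase in WT. In KO, *Lamc1* was at 17.8 ± 4.43 CPM per kilobase, beside 18.5 ± 7.22 for *Lamb2*.

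Summed over the class, alpha chain mRNA was 16.6 ± 1.32 CPM per kilobase in WT and 11.5 ± 4.03 in KO, and KO replicate 3, at 15.9, lay just above WT replicate 1, at 15.6. Beta chains summed to 75.2 ± 3.38 in WT and 80.2 ± 25.0 in KO. Within the alpha class, *Lama1* made up 50.3% ± 7.06 and *Lama5* 38.4% ± 1.98 in WT, and 47.9% ± 4.34 and 40.8% ± 12.1 in KO.

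**Figure D4:**
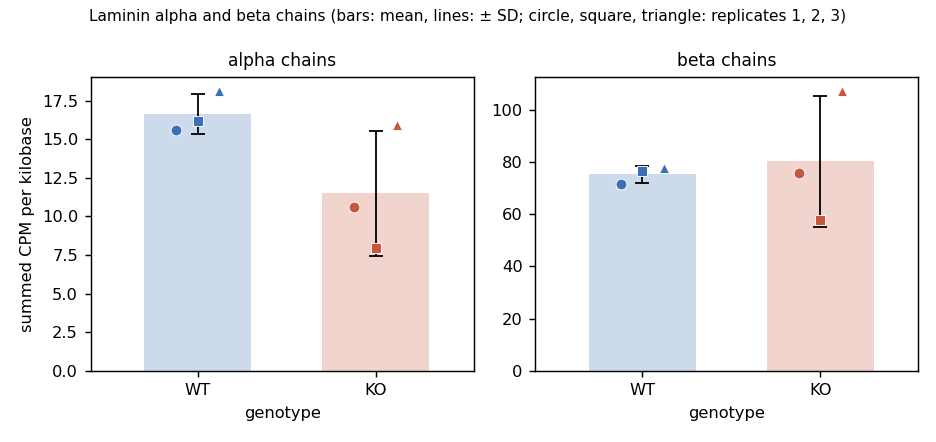
Summed CPM per kilobase of laminin alpha and beta chain mRNA by genotype, as mean (bar), ± SD (line) and 1 symbol per library, each class on its own axis from 0. The alpha class is lower in KO except for replicate 3, and the beta class has a similar mean with a wider spread in KO.

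A ratio within a library does not depend on the scaling between libraries, so 8 ratios of chains and subunits were compared by two-sided exact permutation tests, which cannot give a p under 0.1 with 3 libraries against 3. The log2 ratio of *Lama1* to *Lamc1*, alpha and gamma chains of the same trimer, was 0.11, -0.38 and 0.13 in WT and -1.85, -1.91 and -1.41 in KO, per kilobase. The ranges were well apart, and the difference of -1.68 had an exact p of 0.1 and an adjusted p of 0.4 over the 8 ratios. It stayed between -1.85 and -1.59 without each library in turn. The log2 ratios of *Lama5* to *Lama1* and of *Lamb2* to *Lamb1* differed by 0.11 and 0.16, with overlapping libraries and exact p of 0.8 and 0.6.

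Among the laminin receptor subunits, *Itga6* (chr2:71745616-71858416, plus strand, GRCm38), which pairs with the products of *Itgb1* or *Itgb4*, was at 92.6, 91.6 and 75.1 CPM in WT and at 123.3, 121.1 and 101.3 CPM in KO. Every KO library lay above every WT library. Its log2 fold change of 0.42 (standard error 0.12) had an unadjusted p of 0.0088 and an edgeR adjusted p of 0.223 and 0.0495 by DESeq2. With offsets for the GC content of transcripts it was 0.12 with an unadjusted p of 0.269.

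*Itgb1* (chr8:128685654-128733200, plus strand, GRCm38), the beta subunit shared by most receptors for laminin, collagen and fibronectin, was the most abundant member among the integrins. It was at 591.4, 492.8 and 559.2 CPM in WT and at 470.8, 462.7 and 477.5 CPM in KO, so that the KO libraries were tightly grouped and all below WT. The change was small, with a log2 fold change of -0.22 (standard error 0.09), an unadjusted p of 0.0450 and an edgeR adjusted p of 0.460, and 0.470 by DESeq2.

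The other laminin receptor subunits showed no detectable difference. *Itga3*, the second epithelial laminin receptor alpha subunit, was at 46.4, 49.4 and 49.4 CPM in WT and at 52.4, 42.1 and 61.7 CPM in KO (log2 fold change 0.10, standard error 0.15). *Itgb4*, the hemidesmosome subunit, with a 7mer-A1 match, was at 7.96, 7.43 and 9.32 CPM in WT and at 7.57, 5.13 and 10.7 CPM in KO (log2 fold change -0.08, standard error 0.28). *Itga7*, a receptor subunit of muscle, had 0, 18 and 0 counts in WT and 8, 15 and 15 counts in KO, too few to order the genotypes. The log2 ratio of *Itga6* to *Itga3* differed by 0.33 between genotypes and that of *Itga6* to *Itgb4* by 0.55, both with an exact permutation p of 0.3, and that of *Itgb4* to *Itgb1* by 0.08, with an exact permutation p of 0.9. The difference for *Itga6* to *Itga3* was 0.15 without KO replicate 2, 0.22 without WT replicate 3 and 0.55 without KO replicate 3. That for *Itga6* to *Itgb4* was 0.25, 0.36 and 0.90 without the same libraries.

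**Figure D5:**
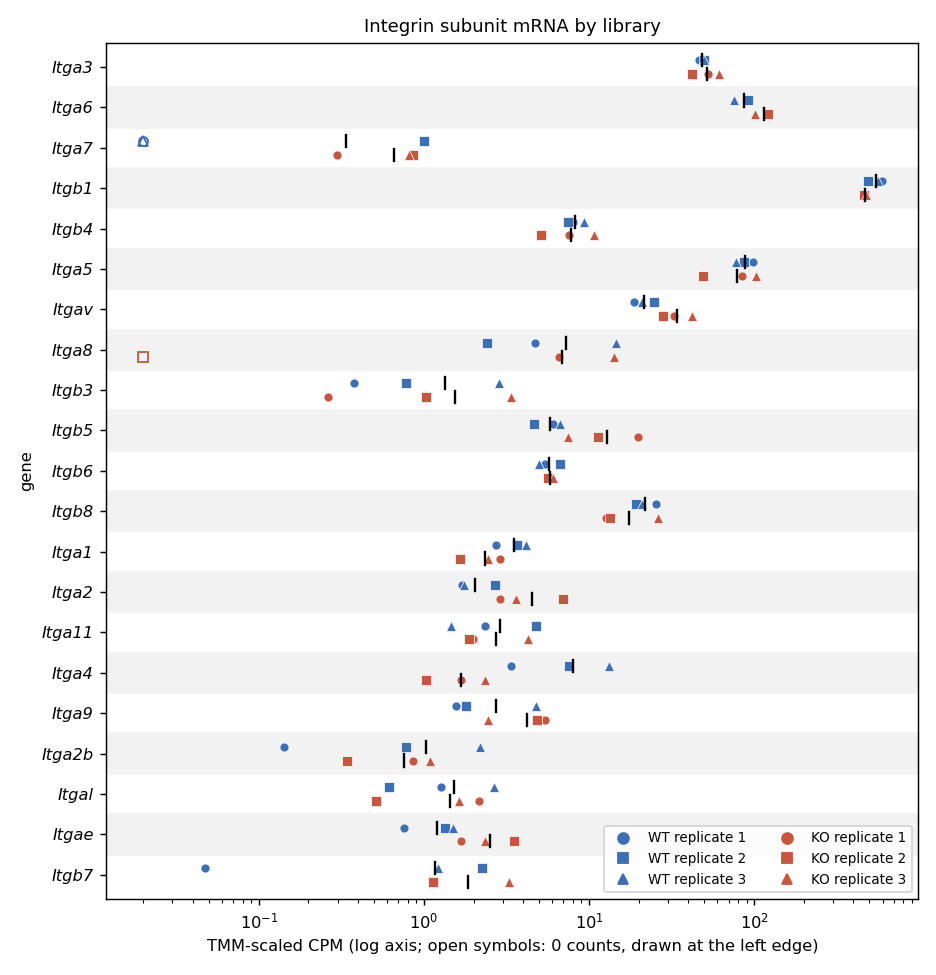
TMM-scaled CPM on a log axis of the 21 integrin subunits that passed the filter, with a symbol for each library, open symbols for libraries with 0 counts and a black bar at the mean of each genotype. *Itgb1* lies far to the right of all other subunits, *Itga6*, *Itgav*, *Itgb5*, *Itga2* and *Itgae* have all KO symbols to the right of WT, and *Itga4* and *Itgb1* have them to the left.

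Among the RGD receptor subunits, 2 of 7 were higher at an unadjusted p under 0.05, beside 6.42% of all genes. The products of these 2 genes form a receptor for vitronectin with each other. *Itgav* (chr2:83724397-83806916, plus strand, GRCm38), the alpha subunit of the vitronectin receptors and a carrier of a 7mer-A1 match, was at 18.8, 24.7 and 20.97 CPM in WT and at 32.8, 27.9 and 42.1 CPM in KO. Every KO library exceeded every WT library. Its log2 fold change of 0.67 (standard error 0.19) had an unadjusted p of 0.0092 and an edgeR adjusted p of 0.227 and 0.0193 by DESeq2. With GC offsets it was 0.42 with an unadjusted p of 0.058.

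*Itgb5* (chr16:33829665-33949338, plus strand, GRCm38), which pairs only with the *Itgav* product, was at 6.08, 4.64 and 6.65 CPM in WT and at 19.9, 11.3 and 7.51 CPM in KO. The genotypes did not overlap, but the KO libraries spread widely and KO replicate 3 was close to WT. Its log2 fold change of 1.16 (standard error 0.36) had an unadjusted p of 0.0146 and an edgeR adjusted p of 0.281 and 0.0318 by DESeq2. It was 0.72 without KO replicate 1 and 1.47 without KO replicate 3. The log2 ratio of *Itgav* to *Itgb1* was -5.86, -5.21 and -5.62 in WT and -4.73, -4.94 and -4.39 in KO, a difference of 0.88 with an exact permutation p of 0.1, the smallest possible, and an adjusted p of 0.4.

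*Itga5*, the alpha subunit of the fibronectin receptor and the most abundant of this role, was at 98.6, 86.9 and 78.1 CPM in WT and at 84.7, 49.3 and 102.9 CPM in KO. The genotypes overlapped and the log2 fold change was -0.15 (standard error 0.25). *Itgb8*, the activator of latent TGF-beta that carries 3 seed matches, was at 25.5, 19.2 and 20.8 CPM in WT and at 12.7, 13.3 and 26.2 CPM in KO. KO replicate 3 was above all WT libraries and the other KO libraries below them, with a log2 fold change of -0.33 (standard error 0.30) that became -0.71 without KO replicate 3. *Itgb6*, an epithelial subunit, stayed between 5.001 and 6.70 CPM in all libraries, and *Itgb3*, a subunit of platelets and vessels with the 8mer match, between 0.26 and 3.37 CPM.

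Of the collagen receptor subunits, *Itga2*, an epithelial and platelet subunit, was low but separated, at 1.70, 2.68 and 1.75 CPM in WT and at 2.91, 7.01 and 3.59 CPM in KO, from 36 to 123 counts a library. The lowest KO library lay just above the highest WT library. The gain of 1.14 on the log2 scale (standard error 0.40) had an unadjusted p of 0.0252 and an edgeR adjusted p of 0.360 and 0.162 by DESeq2, and it fell to 0.68 without KO replicate 2. *Itga1*, a subunit of mesenchyme and smooth muscle, was at 2.73 to 4.13 CPM in WT and 1.65 to 2.91 CPM in KO (log2 fold change -0.58, standard error 0.31), and *Itga11* at 1.46 to 4.80 CPM over all libraries. *Itga10*, a cartilage subunit, had 1 to 6 counts a library and did not pass the filter.

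*Itga4* (chr2:79255426-79333123, plus strand, GRCm38), which binds fibronectin and VCAM-1 and is used by blood, endothelial and mesenchymal cells, had the most negative fold change of the members. It was at 3.39, 7.60 and 13.2 CPM in WT and at 1.68, 1.03 and 2.34 CPM in KO, from 72, 136 and 271 counts against 45, 18 and 43 counts. All KO libraries lay below all WT libraries, while the WT libraries themselves differed several-fold. A log2 fold change of -2.25 (standard error 0.54) had an unadjusted p of 0.0037 and an edgeR adjusted p of 0.165 and 0.00081 by DESeq2. Without WT replicate 3 it was -1.67, and without WT replicate 1 it was -2.62. In GENCODE M21 the gene overlaps *Cerkl* on the other strand, which had 273 counts in all libraries together. The erythroid markers were highest in WT replicate 3 and KO replicate 1, and *Itga4* was at 13.2 and 1.68 CPM there. The summed mesenchyme markers ranged from 204.3 to 1180 CPM in WT and from 54.9 to 1373 CPM in KO, and the 12 endothelium markers from 29.6 to 44.6 CPM and from 12.9 to 59.0 CPM. Among markers past the filter, all KO libraries lay below all WT libraries for 1 of 12 mesenchyme markers. For the 7 endothelium and 11 erythroid markers past the filter the number was 0. The share over all genes was 7.99%, and the marker lists were not tested. The mesenchyme marker was *Tbx18*, at 2.87, 5.03 and 10.6 CPM in WT and at 2.24, 0 and 2.83 CPM in KO. Of 4 macrophage and leukocyte markers past the filter, 0 lay below in this way and 1 above. *Spi1*, below the filter, had 29, 3 and 4 counts in WT and 0 in every KO library. Of 4 neural and neural crest markers past the filter, 1 lay below and 0 above. It was *Dcx*, at 8.48, 10.3 and 9.13 CPM in WT and at 3.80, 5.47 and 4.03 CPM in KO. These genes were singled out after their values were seen. The part of these cells in the difference of *Itga4* was not tested.

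*Itga9*, a receptor subunit for tenascin and osteopontin, was at 1.56, 1.79 and 4.81 CPM in WT and at 5.40, 4.84 and 2.45 CPM in KO, and the genotypes overlapped (log2 fold change 0.64, standard error 0.51). The fold change was 1.37 without WT replicate 3, 0.36 without WT replicate 1 and 0.25 with offsets fitted to the GC content trend of each library. It overlaps a pseudogene, *Gm10157*, which had 507 counts on the other strand.

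The integrins of blood cells were at or near the floor. *Itgae*, the receptor subunit of lymphocytes in epithelia, was at 0.75, 1.34 and 1.51 CPM in WT and at 1.68, 3.53 and 2.34 CPM in KO. The genotypes did not overlap, and the log2 fold change of 1.06 (standard error 0.42) had an unadjusted p of 0.0376 and an edgeR adjusted p of 0.427. Its span overlaps that of *Haspin* on the other strand, which had 3229 counts in all libraries together, beside 16 to 62 counts a library for *Itgae*. Whether exons of *Itgae* and *Haspin* overlap was not examined, so whether reads of *Haspin* enter these counts is not known. The pan-leukocyte marker *Ptprc* had 16 counts in WT replicate 1 and 0 in the other libraries.

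*Itgb7*, the beta subunit that pairs with *Itgae*, ran from 0.047 to 3.27 CPM, *Itgal* from 0.51 to 2.67 CPM and *Itga2b* from 0.14 to 2.18 CPM, and the genotypes overlapped for each. Of the blood cell subunits below the filter, *Itgax* had 0 counts in all libraries, *Itgad* 1 count in WT replicate 3 and *Itgam* 0 to 10 counts. *Itgb2*, a beta subunit of leukocyte integrins, had 8 counts in WT replicate 3, 5 in KO replicate 2 and 0 in the others. *Itgb2l* had 10, 4 and 5 counts in WT and 2, 0 and 0 in KO, and a count of 0 allows up to 3 counts.

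Per kilobase, the integrin mRNAs of WT cells were headed by *Itgb1* with 143.6 ± 13.2 CPM per kilobase (SD, n = 3). *Itga6* with 20.1 ± 2.28 and *Itga5* with 20.1 ± 2.35 did not differ beyond their spread, and by the union of exons *Itga5* stood above *Itga6*, at 17.8 against 9.58. *Itga3* followed with 9.96 ± 0.36, and *Itgav* with 3.05 ± 0.42 and *Itgb8* with 2.60 ± 0.39 had overlapping ranges. *Itgb5*, *Itgb4*, *Itga8* and *Itgb6* were at 1.76, 1.33, 1.25 and 1.19 CPM per kilobase and every other subunit under 1. In KO, *Itga6* was at 26.7 ± 2.80 and *Itga5* at 18.02 ± 6.22. By the union of exons *Itga5* stood above *Itga6* in KO too, at 16.01 against 12.8. The KO ranges of *Itgb5*, at 3.94 ± 1.93, and *Itgb8*, at 2.07 ± 0.91, overlapped. *Itgb5* was the higher in KO replicates 1 and 2 and the lower in KO replicate 3, at 2.29 against 3.11. The log2 ratio of *Itga5* to *Itga6* differed by -0.63 between genotypes, with overlapping libraries and an exact permutation p of 0.2. It was -0.28 without KO replicate 2 and -0.94 without KO replicate 3.

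The library codes in the labels begin with H8 for WT replicates 1 and 2 and KO replicate 1, and with H9 for WT replicate 3 and KO replicates 2 and 3. The codes of WT replicate 2 and KO replicate 1 differ only in their last letter. What the code marks is not stated, so whether these libraries of different genotype share a litter or a preparation is not known. Differences of mean log2 CPM within the H8 and the H9 libraries were -0.53 and -0.66 for *Lama5*, 1.01 and 1.23 for *Lamc1*, and 0.42 and 0.56 for *Itga6*. They were 0.59 and 0.70 for *Itgav*, 1.81 and 0.45 for *Itgb5*, and -1.37 and -2.71 for *Itga4*. The genotypes did not overlap for any of these genes, so the direction had to be the same in both sets and is no further evidence. Each difference rested on 1 library of a genotype, KO replicate 1 in H8 and WT replicate 3 in H9. The difference of *Itgb5* was larger in the former and that of *Itga4* in the latter.

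Median fold changes were higher in genes with a GC-rich stretch than in the others, a difference that was not tested. The richest stretch of 200 bases in a member's protein-coding transcripts reached 75% GC in 11 of the 31 members tested, which is 35.5%, beside 26.3% of all tested genes with such a transcript. The median log2 fold change of these 11 was 0.42 and that of the other tested members -0.03, and over all genes the medians were 0.13 and -0.04. With a minimum of 70% GC the medians were 0.21 and -0.08 for members and 0.04 and -0.05 over all genes. The genes DESeq2 called higher were among them, with 80.0% in *Lamc1* and *Itgav*, 81.0% in *Itga6* and 82.5% in *Itgb5*. *Lama5*, lower in KO, also reached 76.5% and *Itgb1* 78.0%, and *Itga4* reached 66.0%. With the offsets for GC content, the log2 fold change of *Lamc1* was 0.77 and that of *Itgb5* 0.80, and those of *Itgb1*, *Lama5* and *Itga4* were -0.37, -0.60 and -2.22. All of these had an unadjusted edgeR p under 0.05, and *Itga6* and *Itgav* did not.

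Other genes of laminin and integrin adhesion were taken from 4 lists of 97 genes in all, of which 89 were tested. By edgeR, 0 passed an adjusted p of 0.05. At an unadjusted p under 0.05 there were 8 higher (8.99%, beside 6.42% of all genes) and 6 lower (6.74%, beside 3.97%), and DESeq2 called 4 higher (4.55% of 88, beside 4.22%) and 2 lower (2.27%, beside 0.648%). The shares of higher genes were close to those of all genes.

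Of the 19 basement membrane partners tested, 2 had an unadjusted p under 0.05 in each direction, beside 6.42% of all genes higher and 3.97% lower. *Hspg2*, which encodes perlecan, the heparan sulfate proteoglycan that ties laminin to collagen IV, was at 39.7, 46.6 and 53.7 CPM in WT and 26.0, 20.5 and 35.4 CPM in KO (log2 fold change -0.77, standard error 0.22, DESeq2 adjusted p = 0.0193). *Frem2*, a protein of the layer beneath epithelial basement membranes, was at 85.2, 78.7 and 103.3 CPM in WT and 50.2, 47.7 and 74.8 CPM in KO (log2 fold change -0.63, standard error 0.19, DESeq2 adjusted p = 0.0480). All KO libraries lay below all WT libraries for both. *Agrn*, agrin, which links laminin to cell surfaces, was at 62.3, 92.9 and 68.3 CPM in WT and 116.7, 87.2 and 139.9 CPM in KO, with KO replicate 2 inside the WT range (log2 fold change 0.62, standard error 0.21, DESeq2 adjusted p = 0.0511).

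Among 11 non-integrin laminin receptors and their partners, *Sdc3*, syndecan-3, a heparan sulfate proteoglycan of the cell surface, was at 8.53, 15.3 and 9.22 CPM in WT and 41.4, 30.7 and 27.4 CPM in KO. The KO libraries were all well above WT, with a log2 fold change of 1.59 (standard error 0.27) and an edgeR adjusted p of 0.132, and DESeq2's adjusted p was 9.24e-07. *Cd151*, a tetraspanin that binds laminin receptor integrins, was at 17.2, 13.0 and 18.4 CPM in WT and 8.61, 12.9 and 10.1 CPM in KO, a log2 fold change of -0.62 (standard error 0.22, DESeq2 adjusted p = 0.162).

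Of the 41 integrin adaptors and kinases tested, 5 were higher and 1 lower at an unadjusted p under 0.05. Over all genes these shares were 6.42% and 3.97%. DESeq2 called *Fyn*, *Bcar1* and *Rap1b* higher, out of 41, beside 4.22% of all genes. *Rap1b*, a small GTPase that activates integrins, was at 74.7, 121.7 and 86.0 CPM in WT and 174.7, 178.9 and 156.8 CPM in KO, a log2 fold change of 0.85 (standard error 0.17). *Fyn*, a Src family kinase at adhesions, was at 37.4, 60.6 and 35.9 CPM in WT and 95.4, 82.7 and 72.8 CPM in KO, a log2 fold change of 0.91 (standard error 0.22). *Bcar1*, a scaffold phosphorylated at adhesions, was at 77.8, 89.7 and 76.0 CPM in WT and 101.6, 102.5 and 111.4 CPM in KO, a log2 fold change of 0.37 (standard error 0.09). Every KO library lay above every WT library for all 3, and DESeq2's adjusted p was 0.00024, 0.0013 and 0.0290. *Plec*, plectin, which ties the *Itgb4* product to keratin filaments, was lower in every KO library, with a log2 fold change of -0.35 (standard error 0.12, DESeq2 adjusted p = 0.238).

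Of the 18 other adhesion ligands, DESeq2 gave an adjusted p to 17 and called 0. Over all genes it called 4.22% higher and 0.648% lower, and the list is too short to tell 0 from those shares. *Vtn*, vitronectin, the ligand of the *Itgav* and *Itgb5* receptor, was at 678.1, 549.1 and 458.3 CPM in WT and 426.2, 432.2 and 427.8 CPM in KO, a log2 fold change of -0.39 (standard error 0.14, DESeq2 adjusted p = 0.179). Of the genes with positive fold changes, *Postn*, a mesenchymal matrix protein, had the smallest p, 0.254, and ran from 3.53 to 214.4 CPM in the KO libraries alone.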

How the data were processed

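Messenger RNA was measured in 6 libraries, 3 per genotype, grouped by the genotype in the labels. The authors made cDNA with the SMART-seq v4 kit and Nextera XT libraries, read them as pairs of 150 bases, removed low-quality sequence and mapped the reads to GRCm39 (STAR), and their deposited values are whole-number counts per gene from GenomicAlignments, not normalized. Tool versions, the annotation, and the handling of strand and of reads shared by genes are not given in the sources used here.

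Genes were filtered with filterByExpr and scaled with TMM factors, then tested with the quasi-likelihood fit of edgeR 4.0.16 (R 4.3.3) at defaults, with genotype as the only term, two-sided, with Benjamini-Hochberg adjustment over all 16353 genes tested and calls at 0.05. Standard errors follow from the F statistic. As an alternative, DESeq2 1.42.0 was run at defaults. Fits were tested on simulated counts. Depth sets the precision of low genes: 0 counts allow up to 3, for counting error only. Of the Ensembl identifiers, 94.0% had a symbol. Transcript lengths, 3′UTRs, gene positions, overlaps and GC content came from GENCODE M21, built on GRCm38 and not on the build of the counts, and miRNA sequences from RefSeq. Overlaps are those of whole gene spans, not of exons. Between libraries of a genotype, chi-square divided by its degrees of freedom was 25.3 to 41.0, above counting noise.

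The members and lists were chosen with earlier results of these data known. Of the members, 1 past the filter enters the counts over members and is not reported here. Values in every library are given for all other laminin chains and laminin receptor subunits past the filter, for other members with an unadjusted edgeR p or a DESeq2 adjusted p under 0.05, for the highest of each role and for those with counts in 1 or 2 libraries. Other adhesion genes are named where called by DESeq2, or by the smallest p in a direction. The alternatives were other scalings, filters and estimates of spread, DESeq2, a replicate block, the first digit of the library code, offsets for GC content, and fits without libraries. The level per exon union was added after the data were seen.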

Additional observations from a re-analysis of the deposited data

How the results depend on the processing

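With adjustment, edgeR called 0 genes as run for the report. DESeq2 called 606 higher and 93 lower over all genes, 4 higher and 2 lower members, and 4 higher and 2 lower among other adhesion genes. Without the filter on low counts, edgeR gave 241 and 23 over all genes, 1 higher member, *Lamc1* (edgeR adjusted p = 0.0465), and 3 higher adhesion genes. Leaving out each library in turn gave 0 to 213 higher and 0 to 4 lower genes, 0 members, and 0 to 3 higher adhesion genes, the highest counts each being without WT replicate 2. The other alternatives gave 0 calls. The causes were not tested.

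Members with an unadjusted p under 0.05 numbered 6 higher and 4 lower. Without WT replicate 3 and KO replicate 1 there were 3 higher. There were 2 lower with the library code digit as a term, 2 with the replicate block, and 2 to 5 without each library in turn, with 2 without KO replicate 2 and without WT replicate 3. Deviations of same-numbered libraries from their group means correlated at -0.21, 0.25 and 0.08. With 3 libraries a genotype this cannot settle whether replicate numbers pair the samples. The replicate block left 0 calls, as did the fit without it. The member median of 0.02 was 0.30 without WT replicate 3 and KO replicate 1, -0.01 with the replicate block, and -0.13 to 0.41 without each library in turn, where it was 0.34 without KO replicate 2 and 0.41 without WT replicate 3.

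Of the 31 members, 19 kept the sign of their log2 fold change in all 14 alternatives. Without WT replicate 3 and KO replicate 1, it moved to 0.74 for *Lama4*, -3.59 for *Lamc3*, 0.06 for *Itgb4*, 1.02 for *Itga8*, 1.95 (from 0.19) for *Itgb3*, -0.03 for *Itgb6*, 0.67 for *Itga2b* and 0.21 for *Itgal*. With the library code digit it turned to -0.0035 for *Lamb1*, -0.69 for *Itgb3* and 0.093 for *Itga11*, and with the replicate block to -0.012 for *Lamb1* and -0.77 for *Lamc3*. Without each library in turn, the range was -1.26 to 0.59 for *Lama4*, -0.19 to 0.21 for *Lamb1*, -0.10 to 0.45 for *Lamb2*, -3.39 to 1.19 for *Lamc3*, -0.34 to 0.16 for *Itgb4*, -0.35 to 0.11 for *Itga5*, -1.08 to 0.99 for *Itga8*, -1.07 to 1.44 for *Itgb3*, -0.035 to 0.17 for *Itgb6*, -0.53 to 0.52 for *Itga11*, -0.95 to 0.78 for *Itga2b* and -0.50 to 0.64 for *Itgal*. The difference in log2 ratio then ran from -0.17 to 0.34 for *Itgb4* to *Itgb1*, from -0.18 to 0.37 for *Lama5* to *Lama1* and from -0.0058 to 0.26 for *Lamb2* to *Lamb1*. With 8mer matches only, 1 member held a seed match, and with 70% in place of 75% GC, 15 tested members held a GC-rich stretch.

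Depth limits *Lamc3*, *Itga7*, *Itga10*, *Lama3* and the blood cell subunits, whose counts were few in each library.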

Other observations

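*Ilk*, the kinase-like adaptor that binds integrin beta subunits in most cells, had 0 counts in 5 libraries and 1 count in KO replicate 3 and was not tested. In GENCODE M21 its span overlaps *Rrp8* and *Taf10* on the other strand, which had 6374 and 4133 counts in all libraries together. *Tln1*, another adaptor of integrin beta subunits, was at 96.3 to 164.3 CPM. Both genes were chosen after their values were seen.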
